A study of Mus musculus with 22 samples.

Results

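Cdkn1a, Phlda3 and Ccng1 are 3 of the 9230 genes with a probe of a single gene symbol on the arrays of this series. They were taken by gene symbol from the array annotation. The choice was made with earlier results of these data known, and rested on their higher values in arsenic samples at gestational day (GD) 9, hour 0, so values at that stage are given as a description with no test. Each gene had 1 probe, and all 3 probes passed the filter on dim probes, so no second probe could check any of the values.

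All 3 genes are textbook targets of p53, the transcription factor encoded by Trp53 that is stabilised when DNA is damaged or a cell is otherwise stressed. Cdkn1a encodes p21, which binds cyclin-dependent kinases and halts the cell cycle. Phlda3 encodes a small protein with a pleckstrin homology domain that competes with the kinase Akt for membrane lipids and so restrains Akt signalling. Ccng1 encodes cyclin G1, which binds protein phosphatase PP2A and takes part in the feedback between p53 and its inhibitor Mdm2. In the closing neural tube, p53 activity bears on how many neuroepithelial cells survive, and loss of p53 is known to disturb cranial closure in some mouse embryos.

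Mouse embryos of Folr2-/- genotype, which lack folate receptor 2, gave RNA from the front part of the neural tube, which was amplified and hybridised to 22 one-colour CodeLink UniSet 10K arrays. Every group, control groups included, was Folr2-/-, so no wild-type tissue stands beside these values. Dams were injected intraperitoneally at GD7 and GD8, at hour 12 of each day, with sodium arsenate at 9.6 mg arsenic per kg of body weight (arsenic) or with water at 10 µL per g (control). Harvest followed the second injection by 3 h at GD8:15 (4 arsenic and 4 control arrays), by 12 h at GD9:00 (3 arsenic and 4 control) and by 24 h at GD9:12 (4 arsenic and 3 control). The labels leave unsaid if arrays stand for different dams, so a p-value covers only the spread among these samples, which may be technical.

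The authors' intensities had been scaled so that array means were close to 600, 500 and 1000 at the 3 stages in order, while array medians lay between 123 and 291. Values below are log2 intensities after quantile normalisation, unless called deposited intensities. A probe's brightness depends on its sequence, so the 3 genes were not ranked against each other. In whole tissue, fewer cells of a type and less RNA per cell cannot be told apart. The Folr2 probe lay between 6.68 and 7.15 on 21 arrays, which is low on this scale, and at 7.47 on arsenic GD9:12 replicate 4 (deposited intensity 221).

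The regions upstream of the genes were read from RefSeq (GRCm38.p6), 250 bases before to 50 bases after each annotated start, because the 3 genes are grouped by a shared transcription factor. The p53 consensus (2 adjacent copies of the p53 half-site consensus, 20 bases with no spacer, both strands) was searched in each window. The gene bodies were annotated at chr17:29090979-29100722 for Cdkn1a, chr1:135766085-135769134 for Phlda3 and chr11:40748552-40755309 for Ccng1. The best match in each printed window is in capitals.
Cdkn1a, upstream start, chr17:29090729-29091028, plus strand: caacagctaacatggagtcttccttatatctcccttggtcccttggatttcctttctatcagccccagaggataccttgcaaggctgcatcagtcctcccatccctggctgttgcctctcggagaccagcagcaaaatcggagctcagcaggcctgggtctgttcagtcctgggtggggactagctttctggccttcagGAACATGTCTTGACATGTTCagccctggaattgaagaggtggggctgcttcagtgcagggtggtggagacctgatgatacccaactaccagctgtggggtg
Ccng1, chr11:40755237-40755536, minus strand: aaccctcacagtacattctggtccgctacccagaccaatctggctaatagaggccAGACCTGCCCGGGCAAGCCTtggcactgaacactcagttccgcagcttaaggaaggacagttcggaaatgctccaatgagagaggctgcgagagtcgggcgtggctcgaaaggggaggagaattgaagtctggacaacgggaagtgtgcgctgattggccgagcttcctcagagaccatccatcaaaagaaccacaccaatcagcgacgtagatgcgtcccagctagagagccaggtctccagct
Phlda3, chr1:135765835-135766134, plus strand: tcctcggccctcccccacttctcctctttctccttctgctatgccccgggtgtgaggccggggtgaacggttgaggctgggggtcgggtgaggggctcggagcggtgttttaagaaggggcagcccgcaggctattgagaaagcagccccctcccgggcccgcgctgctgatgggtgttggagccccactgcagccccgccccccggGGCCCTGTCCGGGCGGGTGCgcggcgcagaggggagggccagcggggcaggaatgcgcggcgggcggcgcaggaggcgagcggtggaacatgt
The Cdkn1a match, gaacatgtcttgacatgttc, began 51 bases before the start and differed from the consensus at 1 of 20 bases. That Cdkn1a window held 2 half-sites without a mismatch, at bases 178 and 200 of the window. The one at 200 began the match and the other lay before it. At least 2 such half-sites were held by 0.359% of windows. The Ccng1 match, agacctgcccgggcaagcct, began 195 bases before the start and also differed at 1 base. Such a match was held by 29 of 32851 windows of the same length, or 0.0883%. The best Phlda3 match differed at 5 bases, as did the best match at a second annotated Cdkn1a start, and 76.6% of all windows held a match that good. The Phlda3 window ended in gaacatgt, which fits the start of a half-site, and a match running past that edge could not be found. These are descriptions of the letters in the windows, and no binding was measured.

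At GD9:00, 12 h after the second injection, all 3 probes were brighter on every arsenic array than on every control array. Cdkn1a, the cell cycle inhibitor, had deposited intensities of 288, 415 and 211 in arsenic samples, against 91, 127, 80 and 75 in controls. After normalisation its values were 8.43, 9.06 and 7.64 in arsenic samples, against 7.04, 7.56, 6.92 and 6.91 in controls. The groups stood apart, with the lowest arsenic value just above the highest control value. The arsenic probes ranked at the 75.8, 83.8 and 55.8 percentiles of their arrays, whereas 3 of the 4 control values were near the floor, at the 10.3, 3.63 and 3.13 percentiles, and control replicate 2 was at the 52.0 percentile. The mean was 8.38 ± 0.71 in arsenic samples (SD, n = 3) and 7.11 ± 0.31 in controls (SD, n = 4), a difference of 1.27 ± 0.26 (SE) or 2.42-fold. Each SE of a difference, here and below, came from the limma fit, which shares its estimate of spread over all groups. It is not the SE of the groups compared and can be smaller or larger than their SDs would give. At GD9:00 it serves as no test of the 3 genes.

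Phlda3, the restraint on Akt, had deposited intensities of 528, 1682 and 455 in arsenic samples, against 282, 254, 280 and 110 in controls. Its normalised values were 9.56, 11.14 and 9.14 in arsenic samples and 8.55, 8.41, 8.61 and 7.29 in controls. Arsenic replicate 2 was far the brightest, and control replicate 4 was far the dimmest. The means were 9.95 ± 1.06 in arsenic samples and 8.22 ± 0.62 in controls, and differed by 1.73 ± 0.60 (SE), or 3.32-fold. Without arsenic replicate 2 the difference was 1.14.

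Ccng1, which encodes cyclin G1, had deposited intensities of 1011, 2606 and 740 in arsenic samples, against 480, 519, 456 and 604 in controls. The normalised values were 10.66, 11.78 and 10.11 in arsenic samples and 9.30, 9.35, 9.28 and 9.71 in controls. The control arrays lay close together and below all 3 arsenic arrays. The means of 10.85 ± 0.85 in arsenic samples and 9.41 ± 0.20 in controls differed by 1.44 ± 0.58 (SE), or 2.71-fold.

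Among the 7833 tested probes at GD9:00, ranked by difference, Phlda3 stood 6th, Ccng1 16th and Cdkn1a 26th. In limma over all probes, 0% passed a Benjamini-Hochberg adjusted p of 0.05 (0 of 7833, with 985 under an unadjusted p of 0.05), and 2.41% had every arsenic array above every control array. The 3 genes were chosen on this contrast, so nothing is read from their count against that share. In each of the 3 genes, arsenic replicate 2 was highest, replicate 1 next and replicate 3 lowest, as the plot of levels by group shows.

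**Figure D1:**
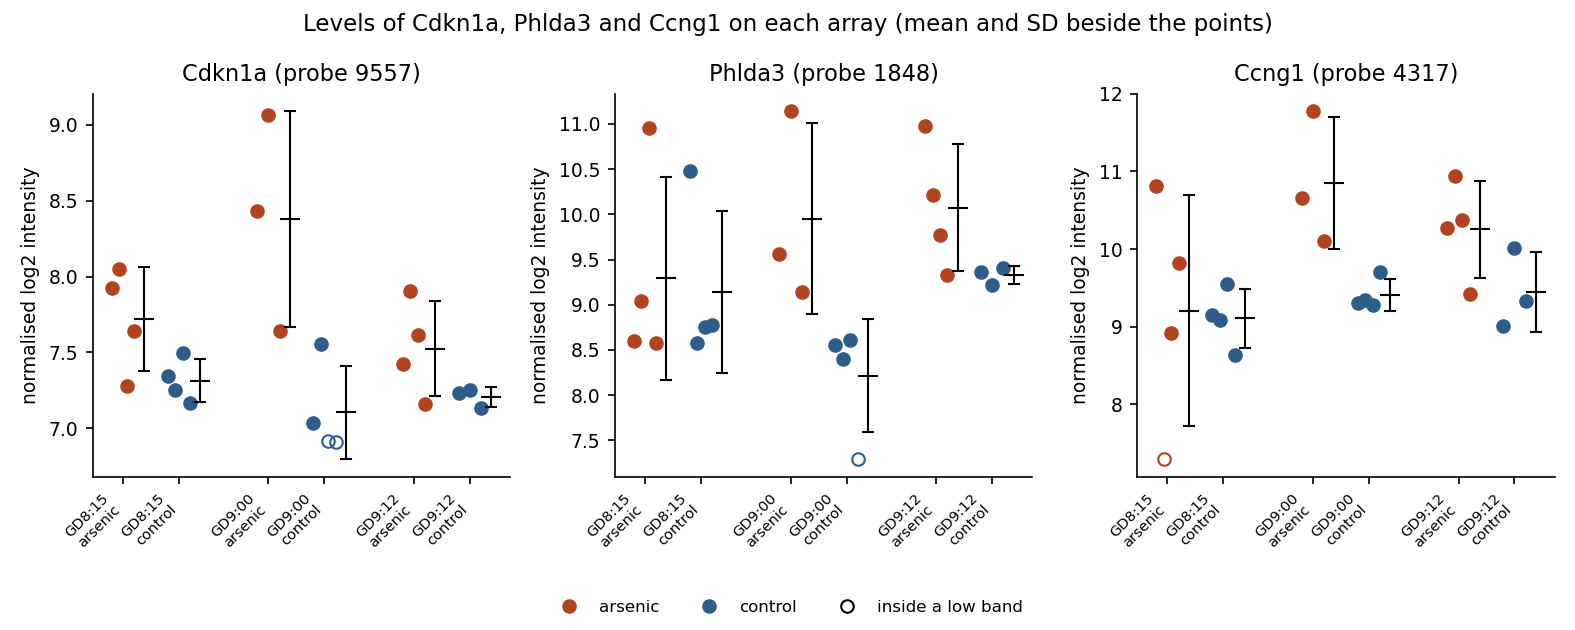
Normalised log2 intensity of Cdkn1a, Phlda3 and Ccng1 on each array, by stage, with arsenic left of control; points are arrays, open where the value lay in a low band (neighbouring probe numbers dim together), and the mean with its SD stands beside them. All arsenic points lie above all control points in each panel at GD9:00 and in no panel at GD8:15 or GD9:12.

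At GD8:15, 3 h after the second injection, none of the 3 genes passed the test. Cdkn1a values were 7.92, 8.05, 7.28 and 7.64 in arsenic samples and 7.34, 7.26, 7.50 and 7.17 in controls. Of the arsenic arrays, 3 lay above every control and replicate 3 lay among the controls. That array had the highest median of its group in deposited intensity, 291, and the lowest mean correlation with its own group, 0.870. The mean was 7.72 ± 0.34 in arsenic samples and 7.32 ± 0.14 in controls (SD, n = 4 each), a difference of 0.41 ± 0.24 (SE), with adjusted p = 0.823 in limma. An exact two-sided permutation test gave p = 0.0857, or 0.257 after adjustment over 6 comparisons (3 genes at GD8:15 and GD9:12). In the authors' scaling all 4 arsenic arrays lay above all 4 controls, with a difference of 0.62 and an exact permutation p of 0.0286, the smallest that 4 against 4 allows, which became 0.172 after adjustment. With that scaling the all-probe median difference was itself 0.21 higher.

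Phlda3 at GD8:15 had values of 8.60, 9.04, 10.95 and 8.58 in arsenic samples and 10.48, 8.57, 8.75 and 8.77 in controls. Each group held 1 array far above the rest, arsenic replicate 3 and control replicate 1, and the groups overlapped. The difference was 0.15 ± 0.55 (SE), with adjusted p = 0.995 in limma. Ccng1 had values of 10.81, 7.29, 8.91 and 9.81 in arsenic samples, a wide scatter, and 9.15, 9.09, 9.55 and 8.63 in controls. Its difference was 0.10 ± 0.54 (SE), with adjusted p = 0.995. Single arrays set the sign of both differences: Phlda3 was at -0.41 without arsenic replicate 3, and Ccng1 at -0.43 without arsenic replicate 1 and 0.74 without arsenic replicate 2. Of all tested probes at this stage 0% passed in limma (0 of 7833, with 571 under an unadjusted p of 0.05), and 1.91% had every arsenic array above every control array. All 4 arsenic arrays at GD8:15 shared their series of title codes with control replicates 2 and 4 only. Control replicate 3 carried another series. Control replicate 1, high for Phlda3 at 10.48, was the only array of its series. Arm and code series thus partly coincided at GD8:15. At GD9:12, control replicate 1 also stood alone in its series, and the other arrays of that stage shared 1 series.

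At GD9:12, 24 h after the second injection, each gene had a higher mean in arsenic samples, and none passed the test. Cdkn1a values were 7.42, 7.90, 7.61 and 7.16 in arsenic samples and 7.23, 7.25 and 7.13 in controls, a difference of 0.32 ± 0.26 (SE). Phlda3 values were 10.98, 10.22, 9.77 and 9.33 in arsenic samples and 9.36, 9.22 and 9.41 in controls, a difference of 0.75 ± 0.60. For Ccng1 the values were 10.27, 10.94, 10.37 and 9.43 in arsenic samples and 9.00, 10.02 and 9.33 in controls, a difference of 0.80 ± 0.58. In each gene, 3 of 4 arsenic arrays lay above every control and arsenic replicate 4 was the lowest of its group, among the controls. That array also had the highest Folr2 value, from a probe under the filter on dim probes, and a link between them was not tested. All 3 had an adjusted p of 1.00 in limma, and exact two-sided permutation tests gave p = 0.171 for Cdkn1a, 0.171 for Phlda3 and 0.114 for Ccng1, each 0.257 after adjustment over the 6 comparisons. The smallest p that 4 against 3 allows is 0.0571. Over all probes 0% passed in limma (0 of 7833, with 100 under an unadjusted p of 0.05), and 2.17% had every arsenic array above every control array. No probe of the 7833 had every arsenic array above every control array at all 3 stages.

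**Figure D2:**
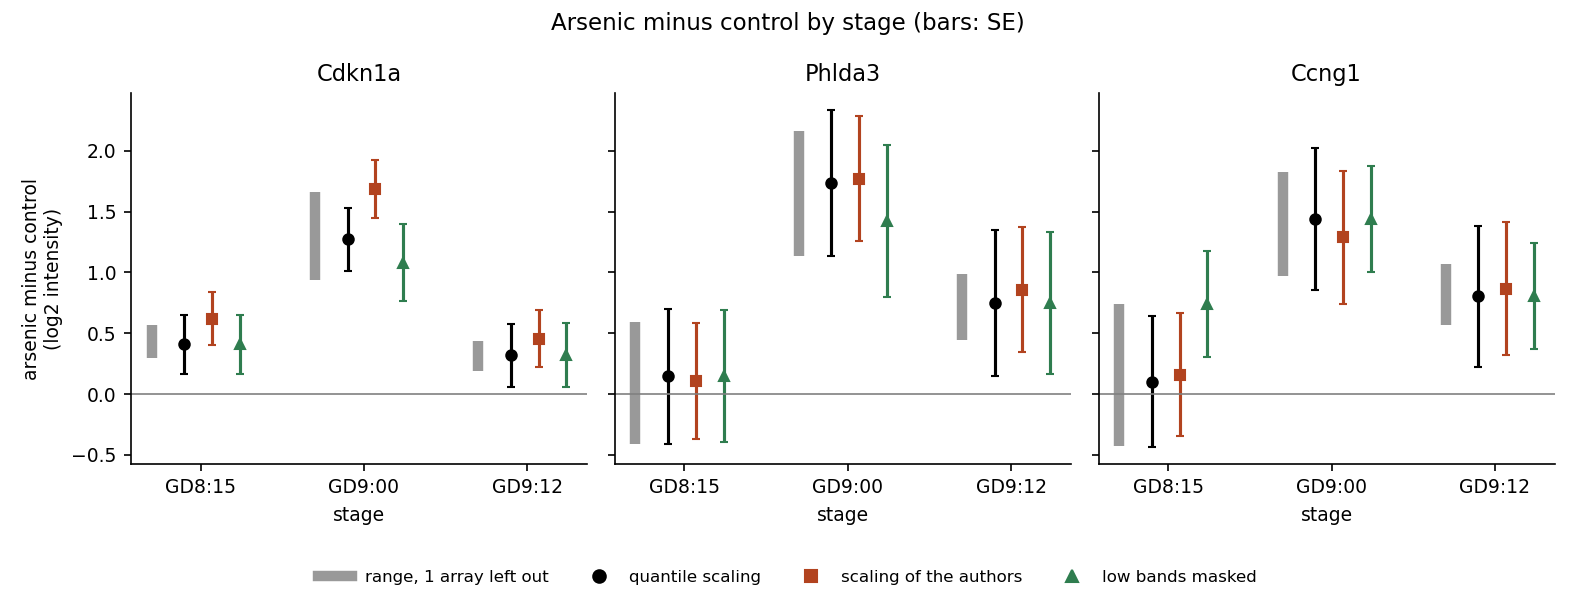
Arsenic minus control difference in normalised log2 intensity for the 3 genes at each stage, for quantile scaling, the authors' scaling and low bands left out, with SE bars; the grey bar is the range with 1 array left out. With quantile scaling the differences at GD9:00, on which the genes were chosen, were 1.27, 1.73 and 1.44 for Cdkn1a, Phlda3 and Ccng1.

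Over the 6 groups, mean Cdkn1a intensity ran from arsenic GD9:00 (8.38) through arsenic GD8:15 (7.72), arsenic GD9:12 (7.53), control GD8:15 (7.32) and control GD9:12 (7.21) to control GD9:00 (7.11). Phlda3 ran from arsenic GD9:12 (10.07) through arsenic GD9:00 (9.95), control GD9:12 (9.33), arsenic GD8:15 (9.29) and control GD8:15 (9.14) to control GD9:00 (8.22). Ccng1 ran from arsenic GD9:00 (10.85) through arsenic GD9:12 (10.25), control GD9:12 (9.45), control GD9:00 (9.41) and arsenic GD8:15 (9.21) to control GD8:15 (9.10). In all 3 orders, each pair of neighbouring groups overlapped. Between GD8:15 and GD9:12, Ccng1 differed by 1.05 ± 0.54 in arsenic samples (SE, adjusted p = 0.204 in limma; 1.58 and 0.0451 without arsenic GD8:15 replicate 1) and by 0.34 ± 0.58 in controls (0.781). In arsenic samples all GD8:15 arrays carry 1 series of title codes and all GD9:12 arrays another, so stage and code series coincide there; with code series as terms the Ccng1 difference was 0.35 ± 1.14, and with the low stretches left out it was 0.41 ± 0.44. Phlda3 differed by 0.78 ± 0.55 in arsenic samples (0.365) and by 0.19 ± 0.60 in controls (0.891), and Cdkn1a by -0.20 ± 0.24 in arsenic samples (0.625) and by -0.11 ± 0.26 in controls (0.847). Of all probes, 13.8% passed between these stages in arsenic samples (1082) and 7.71% in controls (604). The change in the arsenic effect between GD8:15 and GD9:12 was -0.09 ± 0.35 for Cdkn1a, 0.60 ± 0.82 for Phlda3 and 0.70 ± 0.79 for Ccng1, each with adjusted p = 1.00 in limma. In that comparison 0 of 7833 probes passed and 325 were under an unadjusted p of 0.05.

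Some arrays had stretches of neighbouring probe numbers that were dim together, so the values were set against their neighbours. With a running median over 25 probes under -0.35 taken as a low stretch, such stretches covered between 1.5% and 8.90% of the 4 control arrays at GD9:00, 4.42% of arsenic GD8:15 replicate 4 and at most 2.28% of any other array. They held the Cdkn1a values of control GD9:00 replicates 3 and 4, the Phlda3 value of control GD9:00 replicate 4 and the Ccng1 value of arsenic GD8:15 replicate 2. With these 4 values left out, the GD9:00 difference was 1.08 for Cdkn1a, 1.43 for Phlda3 and 1.44 for Ccng1, and the GD8:15 difference of Ccng1 was 0.74 (adjusted p = 0.767 in limma). Among the tested probes within 25 numbers on either side, the median GD9:00 difference was 0.34 around Cdkn1a (31 probes), 0.09 around Phlda3 (31 probes) and -0.04 around Ccng1 (40 probes).

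**Figure D3:**
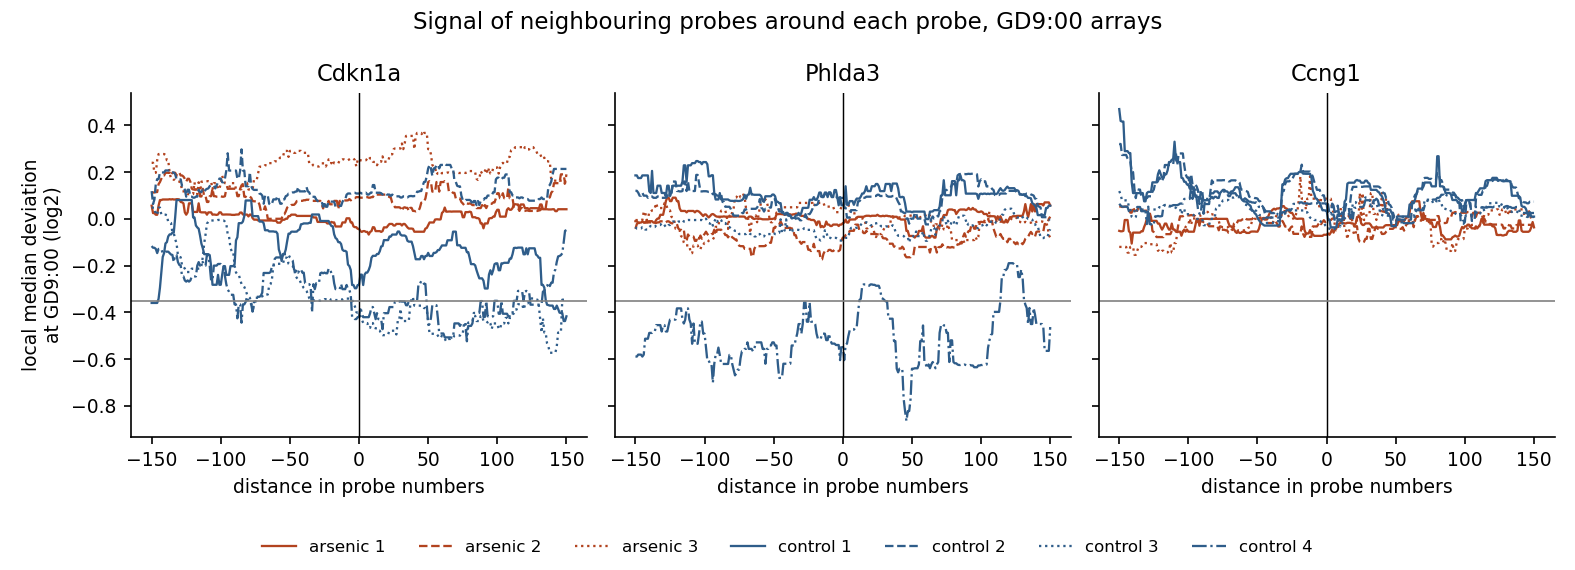
Running median over neighbouring probe numbers of each array's deviation from the probe median, in log2 units, around the 3 probes on the GD9:00 arrays, plotted by distance from the probe, with arsenic and control in different colours and the -0.35 threshold as a line. At the Cdkn1a probe, control replicates 3 and 4 lay below the line (-0.40 and -0.42), replicate 1 was at -0.28 and replicate 2 at 0.11.

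Over the 22 arrays, Cdkn1a and Ccng1 had a Pearson r of 0.536 and a Spearman rho of 0.520, which fell to an r of 0.177 without the 2 arrays farthest from the Cdkn1a median (arsenic GD9:00 replicates 1 and 2). With the low stretches left out, r was 0.858 and rho 0.777 over 19 arrays, and r was 0.800 without the 2 arrays then farthest from the Cdkn1a median. For deviations from the group means, r was 0.360 with all values and 0.827 with the low stretches left out. Without the GD9:00 arrays, a check chosen after seeing the data, r was 0.174 over 15 arrays and 0.839 over 14 with the low stretches left out. The gap between these turned on 1 array, arsenic GD8:15 replicate 2, whose Ccng1 value of 7.29 lay in a low stretch. Phlda3 was less alike, with an r of 0.432 with Cdkn1a and of 0.321 with Ccng1, and 0.322 and 0.383 with the low stretches left out. Its r for deviations from the group means was 0.193 with Cdkn1a and 0.048 with Ccng1, and without the GD9:00 arrays it was -0.108 and 0.155. The arrays share their groups and normalisation, and the genes were chosen for being high together on the arsenic arrays of GD9:00, so these values are descriptions only.

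**Figure D4:**
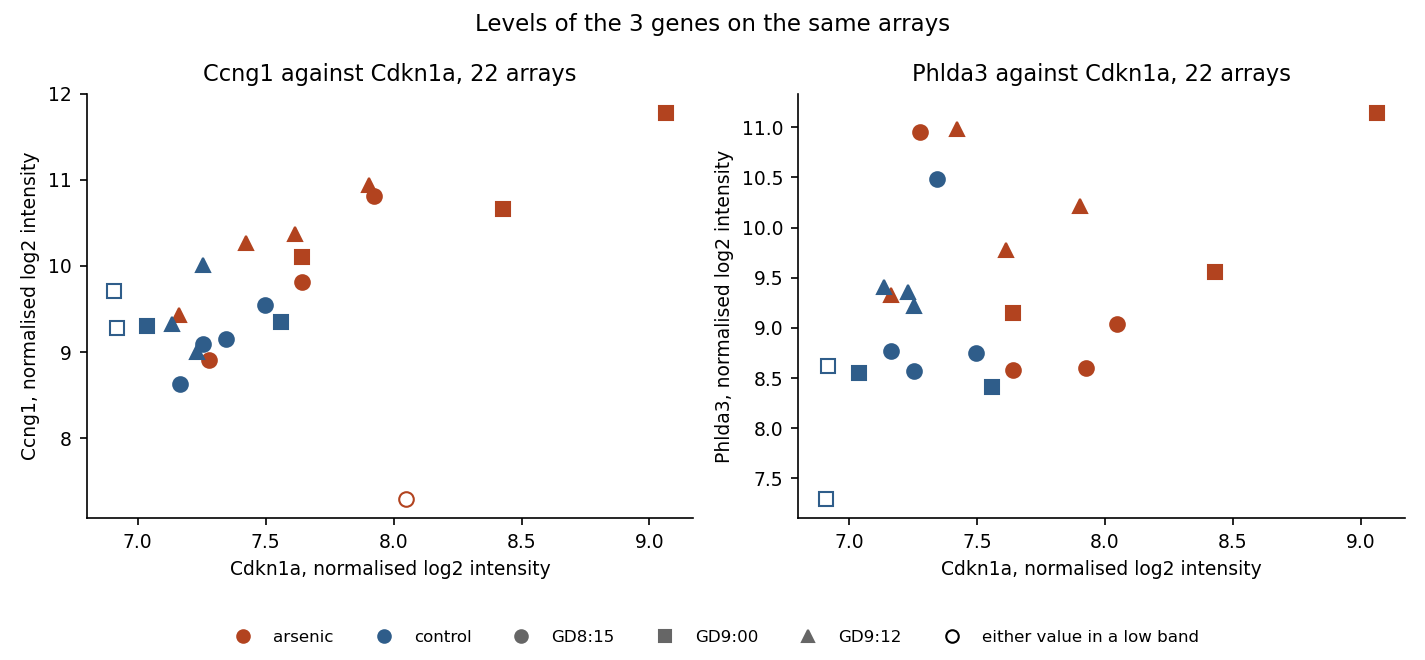
Normalised log2 intensity of Ccng1 and of Phlda3 against Cdkn1a, 1 point per array, coloured by arm, shaped by stage and open where either value lay in a low band. Cdkn1a and Ccng1 had r = 0.536 over the 22 arrays shown.

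By Pearson r over the 22 arrays, the probes most like Cdkn1a were Mt2 (0.798), Ninj1 (0.691), Nsg1 (0.677), Snrpd3 (0.664) and Ywhag (0.663). Nsg1, Ywhag and Snrpd3 lay 96, 85 and 182 probe numbers from Cdkn1a, and none of them was among the 5 most alike with the low stretches left out, which were Ccng1 (0.858), Mt2 (0.818), Hspb11 (0.787), Cradd (0.735) and Acaa2 (0.726). Mt2 encodes metallothionein 2, a metal-binding protein induced by metals and stress. At GD8:15 its mean was 7.68 ± 0.27 in arsenic samples and 7.34 ± 0.14 in controls. The means were 7.76 ± 0.24 in arsenic samples and 7.35 ± 0.070 in controls at GD9:00. By GD9:12 arsenic samples averaged 7.40 ± 0.22 and controls 7.23 ± 0.12. None of the differences of 0.34, 0.41 and 0.17 passed (adjusted p = 0.605, 0.297 and 1.00 in limma). Mt2 was dim too, with deposited intensities of 100 to 270 against array medians of 123 to 291, which limits its differences. Most like Phlda3 were Sh3glb2 (0.686), Lgals1 (0.681), Htt (0.670), Krt7 (0.664) and Ccnd1 (0.647), and most like Ccng1 were Homer1 (0.664), Ppib (0.642), Scn11a (0.642), Setd7 (0.633) and Itgb1bp1 (0.632). By probe number, Htt (9528) and Ccnd1 (9551) lay near Cdkn1a (9557). Neither was among the 5 most like Phlda3 with the low stretches left out. With the low stretches left out, the 5 most like Phlda3 were Pabpn1 (0.669), Naa30 (0.643), Amy1 (0.641), Lgals1 (0.641) and Map3k4 (0.638), and those most like Ccng1 were Cdkn1a (0.858), Mt2 (0.741), Cradd (0.678), Meis2 (0.664) and Pmaip1 (0.651), the last encoding the p53-induced death protein Noxa.

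None of the other p53 targets passed the test at any stage. Of 41 listed genes of arrest, repair and apoptosis, 32 had a probe and 26 were tested. At GD9:00, 12 of the 26 had a higher mean and 14 a lower mean in arsenic samples, with a median difference of -0.02 against 0.01 over all tested probes, and 2 were under an unadjusted p of 0.05. Tnfrsf10b, a death receptor, averaged 8.91 ± 0.53 in arsenic samples (SD, n = 3) and 8.13 ± 0.19 in controls (SD, n = 4), a difference of 0.79 ± 0.22 (SE, adjusted p = 0.243 in limma). Ddit4, an inhibitor of mTORC1 signalling, averaged 9.64 ± 0.26 in arsenic samples and 8.95 ± 0.44 in controls, a difference of 0.70 ± 0.22 (adjusted p = 0.262). These 2 genes stood above every control on every arsenic array at GD9:00, as did Tnfrsf10b at GD9:12 (0.39, adjusted p = 1.00), and 2 others of the 26, Bid and Dram1, stood below every control. Over all tested probes at GD9:00, 7.23% stood below every control on every arsenic array (566), and 2.41% stood above. At GD9:12, 2 of the 26 stood above every control, Tnfrsf10b among them, and 1 stood below, against 2.17% and 2.83% of all tested probes. At GD8:15, 1 stood above and 0 below, against 1.91% and 1.93%. By mean, 13 of the 26 were higher and 13 lower in arsenic samples at each of GD8:15 and GD9:12, with medians of 0.00 at both. Siva1, which promotes apoptosis, had the lowest difference at all 3 stages (-0.89, -0.60 and -0.27), and Gadd45a, which acts in growth arrest after DNA damage, the highest at GD8:15 (0.32) and GD9:12 (0.46).

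Among the regulators of p53, 13 of 18 had a probe and 11 were tested, and none passed at any stage. Their median difference was -0.04 at GD8:15, then -0.03 at GD9:00, and 0.09 at GD9:12. Mdm4, a p53 inhibitor, differed by 0.41 ± 0.14 at GD8:15 (SE, adjusted p = 0.531), and Atm, the kinase that signals DNA breaks, by -0.53 ± 0.18 at GD9:00 (adjusted p = 0.282). Trp53 and Bax were among the genes with no probe of that symbol, Mdm2 and Fas were under the filter on dim probes, and Trp53inp1 had too few values.

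No listed partner of the 3 proteins, and no listed cell cycle gene, passed between arsenic and control at any stage. Among 12 tested partners of p21, the cyclins and kinases it binds, the GD9:00 median was 0.04, and the lowest p belonged to Ccnd1, cyclin D1 (0.45 ± 0.18, adjusted p = 0.353). The Ccnd1 probe (number 9551) lay close to the Cdkn1a probe (9557), whose neighbours had a median GD9:00 difference of 0.34. The part of this stretch in the Ccnd1 value was not tested. Of 24 tested cell cycle genes known to be lowered through p21, 12 had a higher mean at GD9:00 and the median difference was 0.00. Under an unadjusted p of 0.05, 7 of the 24 were lower and 2 higher, against 628 lower and 357 higher of all 7833 probes. Mcm4 and Mcm5, subunits of the DNA replication helicase, differed by -0.94 ± 0.29 and -0.42 ± 0.13 (adjusted p = 0.262 and 0.267), and Birc5, survivin, by 1.07 ± 0.38 (adjusted p = 0.293, with 1 value in a low stretch). All 4 tested partners of cyclin G1 had a lower mean in arsenic samples at GD9:00, with a median of -0.42, among them Ppp2r1a, a scaffold subunit of PP2A (-0.71 ± 0.35, adjusted p = 0.403). Of 7 tested relatives of Phlda3 and genes of the Akt pathway, 3 had a higher mean at GD8:15 (median -0.14), 5 at GD9:00 (0.01) and 4 at GD9:12 (0.07). Phlda2, a close relative of Phlda3, differed by -0.67 ± 0.53 at GD8:15, 1.11 ± 0.57 at GD9:00 and 1.02 ± 0.57 at GD9:12 (adjusted p = 0.926, 0.434 and 1.00). As with the 3 genes, a difference that did not pass is not shown to be absent.

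**Figure D5:**
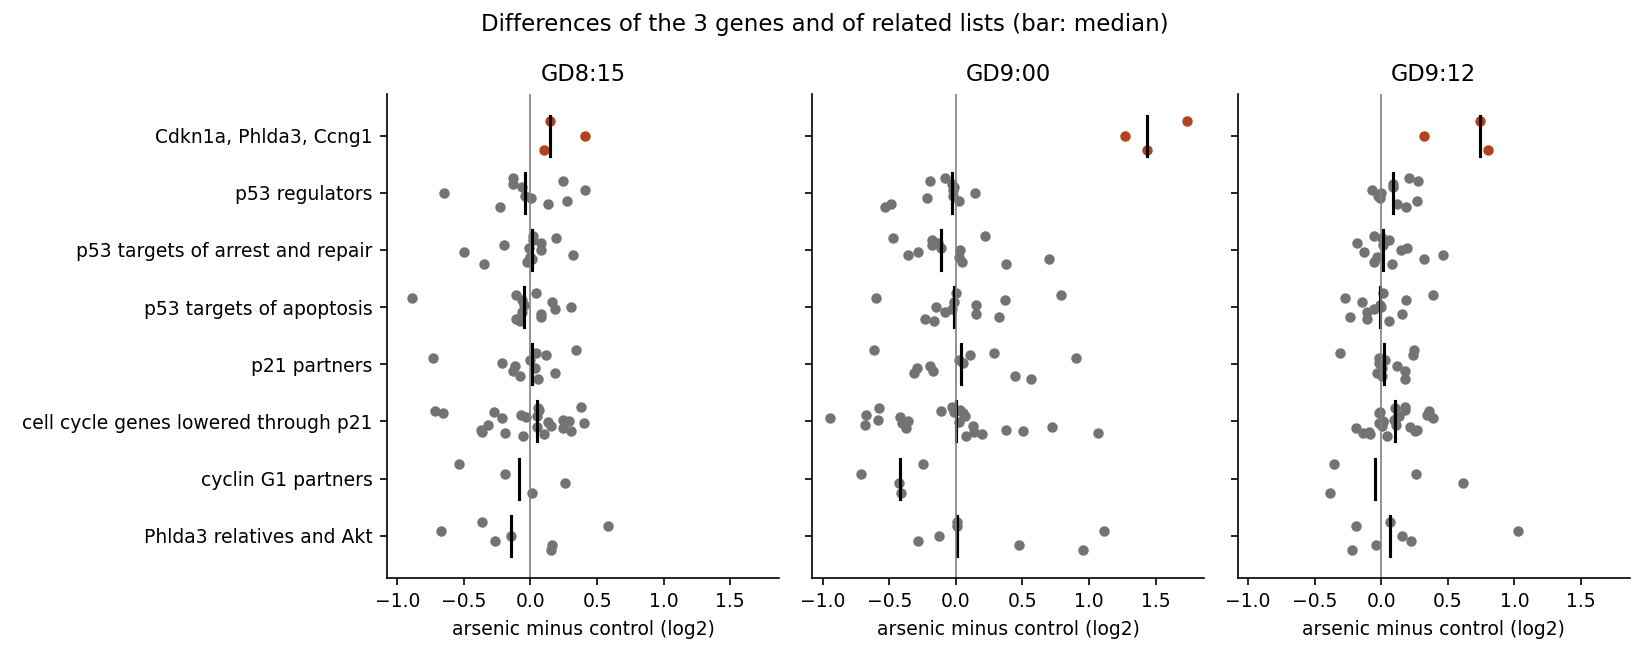
Arsenic minus control difference in normalised log2 intensity for each tested gene of the lists around the 3 genes, by stage; points are genes and black bars are medians, with the 3 genes on the top row. The other p53 targets spread around 0 at GD9:00, with medians of -0.02 for them and 0.01 for all tested probes.

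Other measures moved with the arms, and their part in the results above was not tested. The 9 neural tube markers had a mean deviation from the probe means over all arrays of -0.28 to -0.10 in arsenic samples and of -0.05 to 0.27 in controls at GD9:00, and summed deposited intensities of 5039 to 5748 in arsenic samples and of 5724 to 7102 in controls. Of these 9, 7 had a lower mean in arsenic samples at GD9:00, with Sox11 at -1.36 ± 0.42 (adjusted p = 0.262). Heart and muscle markers, 13 genes, had mean deviations of -0.21 to 0.23 in arsenic samples and 0.34 to 0.59 in controls at GD8:15, and summed intensities of 6748 to 12318 in arsenic samples and of 16735 to 31405 in controls. At GD9:00 all 10 tested heart and muscle genes had a higher mean in arsenic samples, with summed intensities of 8141 to 18209 in arsenic samples and of 4310 to 16989 in controls. Xist, transcribed in female embryos, was at 9.77 to 10.35 in arsenic samples and at 7.10 to 8.71 in controls at GD9:00. At GD8:15 it was at 7.86 to 9.06 in arsenic samples and at 7.02 to 7.10 in controls, so the sex make-up of the embryos and the treatment cannot be told apart at those stages. Eif2s3y, a Y-linked gene, was at 7.11 to 7.30 in arsenic samples and 7.66 to 7.79 in controls at GD8:15. Its values overlapped at GD9:00 (7.01 to 7.18 and 7.06 to 7.89). At GD9:12, Xist was at 11.34 on control replicate 1 and at 6.88 to 7.15 on the other arrays, so sex make-up was uneven there too.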

How the data were processed

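RNA from 22 samples was amplified and hybridised, 1 array each, per the labels. The deposited intensities were whole numbers on a linear scale, scaled by the authors to a common array mean within a stage; the scaling method, scanner software and background correction are not given in the sources used here. Values of 1 or 2 (838) were set to missing, and log2 intensities were quantile-normalised because array medians differed by up to 1.24 on the log2 scale. A probe was tested with at least 2 values in each group and a mean above the lowest 25% (7833 of 10500; 59 failed on values). Gene symbols came from the platform annotation: 9378 probes had 1 symbol, 8 several and 1114 none. All arrays entered 1 limma fit (lmFit, eBayes) of 6 group means, with Benjamini-Hochberg adjustment over all tested probes and a threshold of 0.05. The pipeline was tested on simulated data. The 3 genes and all gene lists were chosen with earlier results of these data known. Named genes were the 3 members, up to 3 genes of lowest p per list and arsenic contrast, and the 5 probes most like each member. Xist, Eif2s3y and Folr2 were also named. Bid, Dram1, Trp53, Bax, Mdm2, Fas and Trp53inp1 were added after their values were seen. Alternatives covered scaling, placeholders, filters, low stretches, variance prior, array weights, title code series, the samples fitted and each array left out. R 4.3.3, limma 3.58.1, Python 3.11.15, scipy 1.17.1 and matplotlib 3.10.9 were used. The number of arrays limits the precision.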

Additional observations from a re-analysis of the deposited data

Results flagged for a closer look

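In 3 of the 12 sets of 4 arrays (3 genes in 4 groups), 1 array stood far from the others by Dixon's criterion, which chance meets in about 5% of sets. Phlda3 in control GD8:15 replicate 1 was at 10.48, with the next control at 8.77. Phlda3 in control GD9:00 replicate 4 was at 7.29, with the nearest control at 8.41, and this value lay in a low stretch of probes. Ccng1 in control GD9:00 replicate 4 was at 9.71, with the nearest control at 9.35.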

How the results depend on the processing

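The 3 genes had higher means in arsenic samples at GD9:00 under every alternative run that gave a value. They were chosen on this contrast, with every arsenic array above every control. Their direction was thus all but fixed in advance and gives no support. With each array left out in turn, their differences ranged from 0.94 to 1.66 for Cdkn1a, 1.14 to 2.16 for Phlda3 and 0.97 to 1.83 for Ccng1. The differences were lowest without arsenic replicate 2 and highest without arsenic replicate 3. In the authors' scaling they were 1.68, 1.77 and 1.29, where the median of all probes shifted by 0.43, as log2 ratios of group medians of the authors' values 1.75, 0.98 and 1.02, and with a local median subtracted (chosen after seeing the data) 0.98, 1.67 and 1.53. The stricter filter on dim probes removed Cdkn1a, so it has no value there. At GD8:15, arrays left out in turn gave 0.30 to 0.57 for Cdkn1a, -0.41 to 0.59 for Phlda3 and -0.43 to 0.74 for Ccng1, with the sign of Phlda3 and Ccng1 depending on single arrays (Phlda3 -0.04 without control replicate 2 and -0.41 without arsenic replicate 3; Ccng1 -0.06 without control replicate 4, -0.43 without arsenic replicate 1 and -0.10 without arsenic replicate 4), and with array weights Ccng1 was -0.25. At GD9:12 they gave 0.19 to 0.44, 0.44 to 0.99 and 0.57 to 1.07. Between GD8:15 and GD9:12 they gave -0.35 to -0.08, 0.48 to 1.36 and 0.41 to 1.58 in arsenic samples and -0.16 to -0.05, -0.0051 to 0.63 and 0.06 to 0.57 in controls. In arsenic samples that stage difference passed for Ccng1 without arsenic GD8:15 replicate 1 (1.58, adjusted p = 0.0451), in the authors' scaling (1.74, 0.0165) and with array weights (1.53, 0.0483), and for Phlda3 in the authors' scaling (1.56, 0.022). That scaling set array means 0.74 higher on the log2 scale at GD9:12 than at GD8:15. Under it the stage differences of Ccng1 and Phlda3 rose in controls too, from 0.34 to 1.03 and from 0.19 to 0.82. The all-probe median moved by 0.09 in arsenic samples and by 0.28 in controls. The stages were scaled to different means, so a pass between stages in that scaling cannot be told apart from this step. With code series as terms, which coincide with stage in arsenic samples, the differences were 0.35 for Ccng1 and 0.70 for Phlda3, and neither passed (adjusted p = 0.990 and 0.969). Probes passing at GD8:15 numbered 3 with placeholders kept, 3 and 4 with low stretches over 51 and 25 probes left out, 5 with a trended robust prior, 4 with array weights and 4 with the local median subtracted, and 0 to 5 with arrays left out. At GD9:00 they numbered 1 in the authors' scaling, 110 with array weights, 2 with code series as terms, 1 with arrays of 1 code series per stage (chosen after seeing the data) and 0 to 35 with arrays left out, highest without control replicate 2; at GD9:12, 1 with array weights and 0 to 1 with arrays left out. Between GD8:15 and GD9:12 they numbered 1667 with array weights, 7 with code series and 692 fitted alone in arsenic samples (694 to 1201 with arrays left out), and 1421 in the authors' scaling, 2035 with array weights, 47 with code series and 188 with 1 code series per stage in controls (290 to 727). The causes were not tested. Within 1 code series (2 controls per stage) the differences were 0.51, 0.62 and 0.35 at GD8:15 and 0.33, 0.76 and 0.58 at GD9:12. GD9:00 held 1 series. No paired analysis was possible because the labels carry no shared replicate numbers. Signal over background was not given, and Cdkn1a in controls lay near the floor, which limits its fold.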
